A study of Mus musculus with 2 samples.

Results

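Red blood cells of the fetal mouse eye were taken as the cell barcodes in which globin transcripts made up at least 10% of all unique molecular identifiers (UMIs). They were chosen by this measured globin share, summed over every gene whose symbol starts with Hba- or Hbb-, among barcodes that showed over 500 genes and in which mitochondrial UMIs stayed below 15%. The rule left 1018 red blood cells among 36146 kept barcodes, 581 of 17017 in the humWT library and 437 of 19129 in the humdG library. Because the rule used globin, the height of the globins, and of every gene that goes with them in the same cells, is a description of the choice and carries no test.

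The study compared embryonic eyes that carry a C-terminal frameshift variant of Myrf, a transcription factor of the retinal pigment epithelium, with matched humanized controls. Both libraries came from E17.5 embryos and from homozygous mice in which human sequence replaced the end of the Myrf gene, so that the controls (Myrf humWT/humWT) carried the human exon as well, and the Myrf humdG/humdG mice carried the variant in addition. Each genotype was 1 library made from 3 pooled samples, with no map from cells to animals, so there was no replicate spread and no test between genotypes. The sources differed on the tissue: the series' labels have cornea, lens and optic nerve removed, whereas the study's methods leave the cornea in, and the shared protocol text names Myrf fl/fl and Rx>cre Myrf fl/fl mice in place of the humanized strains. All intervals below are 95% intervals and cover counting error only.

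Red blood cells carry oxygen on hemoglobin, a tetramer of alpha-like and beta-like globin chains that each hold a heme group. In the mouse embryo a first, primitive wave from the yolk sac uses embryonic globins, and a definitive wave from the fetal liver uses adult globins. As a definitive cell matures it stops dividing, expels its nucleus, and clears its organelles and most of its other RNA, so that a reticulocyte carries little RNA beyond the globins and a small set of genes for heme, iron, the membrane and maturation.

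The label was checked against 3 markers, of which the globins Hba-a1 and Hbb-bs were used by the rule and Alas2, the red cell enzyme of the first step of heme synthesis, was not. At least 1 Alas2 UMI was found in 75.7% of the humWT and 65.0% of the humdG red blood cells, against 7.25% and 4.79% of the other barcodes. The other barcodes had a median of 3759 and 2540 UMIs, against 4257 and 3518 in the red blood cells, and of 3734 and 2519 non-globin UMIs, against 2518 and 1930, so the order of depth turned with the scale. With every barcode thinned to 1000 UMIs, which left out 51 and 371 shallower barcodes, all of them other barcodes, the shares were 37.2% and 34.3% against 1.66% and 1.84%. Of 7 red cell genes outside the globins (Alas2, Slc4a1, Tspo2, Isg20, Kel, Rhag and Rhd), at least 1 was detected in 78.7% and 70.3% of the red blood cells and in 10.3% and 6.97% of the other barcodes. At least 3 of the 7 were detected in 13.4% and 9.84% of the red blood cells, against 0.0426% and 0.0321%. Among the 72 and 83 other barcodes with 5 to 10% globin, at least 1 was detected in 45.8% and 22.9%. At least 3 were detected in 1.39% and 0% of these. The 7 genes were picked from 76 listed red cell genes without a rule set beforehand, and not every listed gene stood out. Of the listed genes with at least 20 UMIs in the red blood cells, 22 of 41 (humWT) and 18 of 37 (humdG) were at least 2-fold above the other barcodes. This was per non-globin UMI, beside 0.914% and 1.12% of all genes.

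Red blood cells were 3.41% of the kept humWT barcodes (exact interval 3.15 to 3.70%) and 2.28% of the humdG barcodes (2.08 to 2.51%), a ratio of 0.669. A further 5 and 11 barcodes reached 10% globin but had too few genes, and 0 and 1 had too many mitochondrial UMIs. Across the limit the distribution had no gap: 31 and 24 barcodes lay between 8% and 10% globin, and 27 and 13 between 10% and 12%. The barcode nearest to the limit held 9.93% outside it in both libraries and 10.04% (humWT) or 10.08% (humdG) inside it. Most barcodes were far from it, since 16308 and 18499 held under 3% globin, and only 128 and 193 held 3% to 10%.

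**Figure D1:**
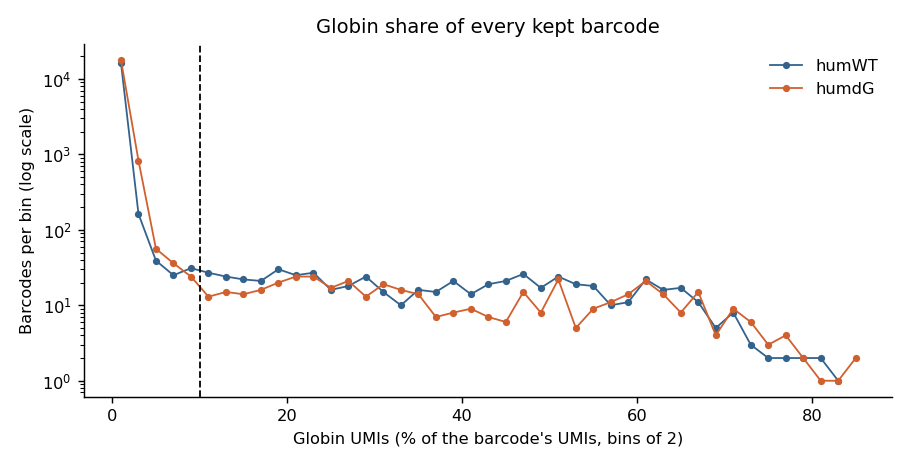
Number of kept barcodes (log scale) by globin share of the barcode's UMIs, in bins of 2%, for the humWT and humdG libraries; the dashed line marks the 10% limit. Nearly all barcodes lie under 3%, and the red blood cells spread from 10% to 82.7% (humWT) and 85.1% (humdG) with no gap at the limit.

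The whole libraries held 129135207 (humWT) and 114319529 (humdG) UMIs, of which the red blood cells held 3023334 and 1966735. A red blood cell had a median of 859 and 805 detected genes and of 2518 and 1930 non-globin UMIs. The median globin share was 38.0% in humWT, with 90% of cells between 12.2% and 66.4%, and 34.6% in humdG, with 90% between 12.6% and 71.5%. The 2 libraries shared 93 barcode sequences among kept barcodes, and 1 of these was a red blood cell in both.

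Globin in the rest of the tissue gave the background. Summed over all other barcodes, globins were 0.341% and 0.407% of UMIs, and the median barcode held 0.522% and 0.801%. Cells with at least 3 of 7 macrophage markers held a median of 0.197% in 228 humWT cells and 0.168% in 142 humdG cells. Cells with at least 3 of 7 endothelial markers held 0.269% in 1011 cells and 0.223% in 501 cells. Neither type belongs to the globin-producing lineage, and both were deeper, with medians of 12112 and 10221 UMIs in the macrophage gate and 9772 and 10049 in the endothelial gate. The red blood cells held 74.7% (humWT) and 65.4% (humdG) of all globin UMIs in the kept barcodes of their library.

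The globins of the red blood cells were adult. Hbb-bs, an adult beta-like chain (chr7:103826534-103828096, minus strand, GRCm38), was the most abundant with 674629 UMIs in humWT and 438554 in humdG, 22.3% of all red blood cell UMIs in both libraries. The alpha chain Hba-a1 (chr11:32283511-32284465, plus strand) followed with 274392 and 204869 UMIs, then the beta chain Hbb-bt with 158619 and 115887 and the alpha chain Hba-a2 with 148877 and 91179. Beta-like UMIs outnumbered alpha-like UMIs 1.97 to 1 in humWT and 1.87 to 1 in humdG. Since each molecule was tagged at its 3′ end and counted once, these levels were compared between genes without scaling to length.

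The embryonic globins were nearly absent. Hbb-y, an embryonic beta-like chain, had 2 UMIs in 2 humWT red blood cells and 15 UMIs in 9 humdG red blood cells. Hba-x, the embryonic alpha-like chain, had 2 UMIs in each library, and Hbb-bh1 and Hbb-bh2 had 0, for which a floor of 3 UMIs each was taken as the one-sided limit. Scaled to 1000000 non-globin UMIs, Hbb-y was at 1.13 and 13.4 in the red blood cells against 0.370 and 1.26 in the other barcodes, and Hba-x at 1.13 and 1.79 against 0.918 and 2.49. Over the far larger pool of other barcodes, Hba-x had 114 UMIs in 49 humWT barcodes and 274 UMIs in 121 humdG barcodes, and Hbb-y had 46 and 139 UMIs. A single other barcode held 56 of the 114 Hba-x UMIs in humWT, and the most in 1 barcode was 49 in humdG. The other barcodes with Hba-x had a median globin share of 0.422% and 0.761%, far from the 10% limit.

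The promoters of Hba-a1, Hbb-bs, Hbb-bt, Alas2 and Rsad2 are shown. They were searched for short motifs that erythroid factors are known to bind, GATAA (GATA factors) and CACCC (KLF factors). The Rsad2 window held neither motif. Each line gives the 250 bases before the annotated RefSeq start (GRCm38.p6), 5′ to 3′ on the gene's strand. Capitals mark both motifs or their reverse complements (TTATC for the first motif and GGGTG for the second motif), and, for Rsad2, 1 match to GAAA, any 2 bases, GAAA or its reverse complement, which is the core of the element that interferon-stimulated factors bind.
Hba-a1: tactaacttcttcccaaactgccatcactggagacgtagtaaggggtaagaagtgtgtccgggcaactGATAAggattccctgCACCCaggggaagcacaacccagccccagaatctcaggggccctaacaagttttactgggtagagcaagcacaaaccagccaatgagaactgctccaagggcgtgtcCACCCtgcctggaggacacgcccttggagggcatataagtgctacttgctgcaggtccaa
Hbb-bs: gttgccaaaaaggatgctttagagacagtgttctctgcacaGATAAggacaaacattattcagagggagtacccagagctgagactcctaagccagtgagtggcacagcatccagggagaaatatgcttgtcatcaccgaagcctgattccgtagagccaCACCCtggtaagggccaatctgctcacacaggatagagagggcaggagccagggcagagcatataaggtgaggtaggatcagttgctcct
Hbb-bt: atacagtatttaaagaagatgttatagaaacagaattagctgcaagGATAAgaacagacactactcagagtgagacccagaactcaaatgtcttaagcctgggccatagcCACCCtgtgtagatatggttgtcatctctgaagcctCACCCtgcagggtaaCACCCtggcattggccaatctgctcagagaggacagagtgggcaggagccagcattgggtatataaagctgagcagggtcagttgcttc
Alas2: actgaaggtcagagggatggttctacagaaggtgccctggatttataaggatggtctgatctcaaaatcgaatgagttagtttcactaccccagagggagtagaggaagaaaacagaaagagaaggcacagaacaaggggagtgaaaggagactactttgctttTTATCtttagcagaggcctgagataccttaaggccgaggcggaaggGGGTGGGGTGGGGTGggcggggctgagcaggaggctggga
Rsad2: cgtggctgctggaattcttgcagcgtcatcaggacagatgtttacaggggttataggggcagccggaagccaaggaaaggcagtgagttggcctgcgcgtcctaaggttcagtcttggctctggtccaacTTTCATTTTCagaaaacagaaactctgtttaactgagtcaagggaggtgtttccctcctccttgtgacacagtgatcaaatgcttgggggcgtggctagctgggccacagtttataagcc

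The Hba-a1 window lies at chr11:32283422-32283671, Hbb-bs at chr7:103827929-103828178, Hbb-bt at chr7:103813924-103814173, Alas2 at chrX:150547167-150547416 and Rsad2 at chr12:26456453-26456702. GENCODE places the starts of the 3 globin genes and of Alas2 further upstream, inside these windows. GATAA on either strand was found once in each of the globin windows and once in Alas2, 86 bases before the start as TTATC, and not in Rsad2. Among all 32851 promoter windows of the same length, 22.6% held it. CACCC on either strand was found in 52.0% of all windows. It occurred 2 times in Hba-a1, 1 time in Hbb-bs, 3 times in Hbb-bt and, as adjacent repeats of GGGTG, 3 times in Alas2, but not in Rsad2. The motif made of a pair of GAAA runs was held by 2.98% of all windows and, of these 5 genes, by Rsad2. Matches are descriptions of letters and not of binding.

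The copies of each globin are close to identical, and this bears on every count per copy. The Hba-a1 and Hba-a2 promoter windows share a run of 247 identical bases, offset by 3. Their transcripts (GENCODE M21) differ at 1 of 429 coding bases, and the 74 bases after the stop codon in Hba-a1 all recur in Hba-a2, which is annotated with 90. Assignment of a read to Hba-a1 or Hba-a2 can therefore rest on 1 base or on the annotated ends. Hbb-bs and Hbb-bt differ at 1 of 444 coding bases as well, but at 35 positions after the stop codon, where 94 bases align as identical.

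With that limit, the share of Hba-a2 among alpha-chain UMIs split the red blood cells into 2 sets in both libraries. In humWT, 116 cells had a share under 25% (range 11.3 to 24.9%, median 19.8%), 11 cells lay between 25% and 30%, and 454 cells were at 30% or more (median 40.3%, up to 51.8%). In humdG, 114 cells were under 25% with a median of only 1.57%, 2 cells lay between 25% and 30%, and 321 cells were at 30% or more (median 41.1%). The cells under 25% were thus 19.97% (exact interval 16.8 to 23.5%) of the humWT and 26.1% (22.0 to 30.5%) of the humdG red blood cells. Their Hba-a2 share differed between the libraries, with the middle 50% of cells between 17.7% and 21.1% in humWT and between 0.869% and 2.81% in humdG, and 100 of the humdG cells were under 5% and 12 between 5% and 10%. The cells at 30% or more had nearly the same share in both.

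**Figure D2:**
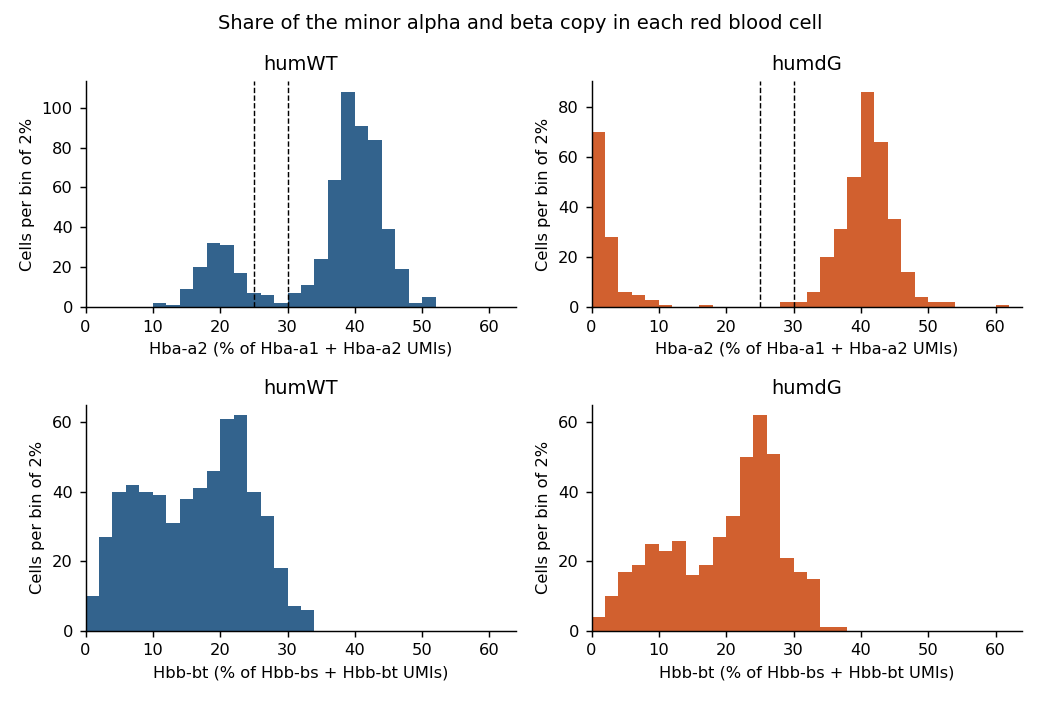
Red blood cells per bin of 2% by the share of Hba-a2 among Hba-a1 and Hba-a2 UMIs (top) and of Hbb-bt among Hbb-bs and Hbb-bt UMIs (bottom), humWT on the left and humdG on the right; dashed lines mark 25% and 30%. The Hba-a2 share has a mode near 40% in both libraries and a second one near 20% in humWT and under 5% in humdG, while the Hbb-bt share is broad.

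The sets had similar depth and globin content. The cells with the low and the high Hba-a2 share had median alpha-chain counts of 672 and 556 UMIs in humWT and 443 and 429 in humdG, median non-globin counts of 2508 and 2518 UMIs and of 1966 and 1899 UMIs, and median globin shares of 40.9% and 38.0% and of 33.6% and 35.8%. The low cells had fewer beta-chain UMIs for each alpha-chain UMI, 1.64 against 2.08 in humWT and 1.53 against 2.00 in humdG. Over the bins of globin share they made up 21.0%, 16.2%, 24.2% and 12.5% of the humWT cells with 10 to 25%, 25 to 50%, 50 to 75% and 75 to 100% globin, and 27.1%, 28.1%, 25% and 0% of the humdG cells. The last of these bins held 8 and 11 cells. The other barcodes with at least 50 alpha-chain UMIs, 119 in humdG, included 11 with a Hba-a2 share under 5% and 8 between 5% and 10%. The limits of 25% and 30% were set after the shares were seen. Cells could not be assigned to the 3 pooled samples of a library, and what separates the sets was not tested.

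The Hbb-bt share among adult beta-chain UMIs was broad, with 5th, 50th and 95th percentiles over cells of 3.41%, 17.1% and 28.1% in humWT and 5.23%, 21.9% and 30.8% in humdG. In humWT its median was 13.1%, 14.7%, 21.3% and 23.3% over the 4 bins of globin share. In humdG it was 23.9%, 19.8%, 21.6% and 24.7%, with no such order. In the cells of low and high Hba-a2 share the median Hbb-bt share was 19.7% and 16.7% in humWT and 16.3% and 22.9% in humdG, opposite in order.

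Outside the globins, 77 of 8424 genes in humWT (0.914%) and 76 of 6808 in humdG (1.12%) with at least 20 UMIs in the red blood cells were at least 2-fold above their level in the other barcodes. Levels here and below are counts per 1000000 non-globin UMIs (CPM). Genes were ranked by the ratio after 10 CPM were added to both levels, which lowers the ratio of genes at low levels most, in the library where that ratio was smaller and among genes with at least 100 UMIs in each. Among the first 10 were Alas2, Rsad2, Mkrn1, Slc25a37, Tent5c, Ube2l6, Bpgm and Fech. Together these 8 leading genes made up 0.371% of the non-globin UMIs of the red blood cells in humWT and 0.354% in humdG, against 0.0135% and 0.0134% in the other barcodes. With nothing added, Tspo2 had ratios of 176 and 202, above the 89.2 and 100 of Alas2, and is not among the 8. These ratios are a description of cells chosen by globin, and nothing is read from their number.

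**Figure D3:**
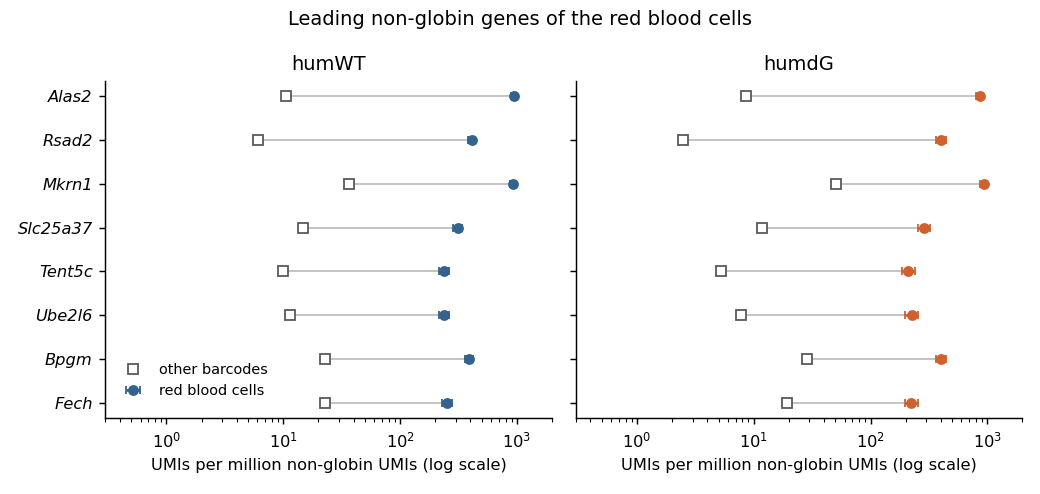
Level of 8 leading non-globin genes, in CPM of non-globin UMIs (log scale), in red blood cells (filled, with exact Poisson 95% intervals) and in all other kept barcodes (open squares), for humWT (left) and humdG (right). Alas2 and Mkrn1 are the most abundant in both libraries, and Rsad2 has the lowest level in the other barcodes.

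Heme synthesis was represented by its first and last steps. Alas2 (chrX:150547375-150570638) had 1662 UMIs in the humWT and 958 in the humdG red blood cells, or 941 (896 to 987) and 858 (805 to 914) CPM, against 10.5 and 8.56 in the other barcodes. Fech, ferrochelatase, which inserts iron into the ring, had 254 and 223 CPM against 22.8 and 19.3. Of the steps between, Urod and Alad were near the level of the other barcodes, at 28.3 and 27.8 CPM against 21.1 and 22.9, and at 23.8 and 26.9 against 30.7 and 28.5. Tmem14c, a mitochondrial porphyrin transporter, had 59.4 and 91.4 against 118 and 120. Of the 11 genes of the list, 6 reached 20 UMIs in each library and 2 of these, Alas2 and Fech, were at least 2-fold above the other barcodes in each, beside 0.914% and 1.12% of all genes. The list median was 106% and 116% of the level there, beside 70.3% and 78.8% over all genes tested.

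Iron supply was led by storage and by mitochondrial import. The ferritin chains Ftl1 and Fth1 had 2395 and 2802, and 1211 and 1680 CPM, against 1458 and 1363, and 902 and 858 in the other barcodes. Slc25a37 (mitoferrin 1), which carries iron into the mitochondrion, had 311 and 288 CPM against 14.7 and 11.9. Tfrc, the transferrin receptor through which red cell precursors take up iron, was not above the tissue, with 18 and 25 UMIs in all, or 10.2 and 22.4 CPM against 13.7 and 26.2. Of the antioxidant genes, Gpx1 (glutathione peroxidase) had 558 and 539 CPM against 89.4 and 71.7, and Blvrb (biliverdin reductase B) 196 and 210 against 56.6 and 42.8. Prdx2, a peroxiredoxin abundant in red cells, had 640 and 1029 against 468 and 665.

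Genes of the membrane and its skeleton were low in count, and several were near 0 in the other barcodes. Slc4a1, the band 3 anion exchanger, had 121 and 81 UMIs, 68.5 and 72.6 CPM, against 0.797 and 0.892 in the other barcodes. Kel and Rhd, which carry blood group antigens, had 24 and 10 UMIs, and 24 and 13. Epb41, protein 4.1, was high in both, with 271 and 341 CPM against 116 and 178, and Slc2a1, a glucose transporter, was lower in the red blood cells (105 and 136 against 129 and 228). On this scale the median over all genes tested was 70.3% (humWT) and 78.8% (humdG) of the level in the other barcodes. Of 20 genes on the list, 8 (humWT) and 5 (humdG) reached 20 UMIs, and 7 and 2 of these were at least 2-fold above the other barcodes, beside 0.914% and 1.12% of all genes. In gas transport and metabolism, Bpgm, which makes the 2,3-bisphosphoglycerate that lowers the oxygen affinity of hemoglobin, had 388 and 400 CPM against 22.7 and 28.8, and Car2, a carbonic anhydrase, 97.9 and 122 against 42.6 and 55.9. Car1, the other carbonic anhydrase on the list, had 4 and 2 UMIs.

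Of the genes of terminal maturation, 8 of the 11 (humWT) and 8 of the 10 (humdG) that reached 20 UMIs were at least 2-fold above the other barcodes, beside 0.914% and 1.12% of all genes. Mkrn1, a ubiquitin ligase, had 925 and 928 CPM against 36.6 and 50.3. Bnip3l, which marks mitochondria for removal, had 456 and 402 against 143 and 166. Ube2l6, a conjugating enzyme for ubiquitin-like proteins, had 239 and 225 against 11.4 and 7.82, Isg20, an exonuclease, 109 and 86.0 against 1.49 and 1.00, and Tspo2 69.6 and 107 against 0.394 and 0.528. Ube2o, which tags ribosomal and other proteins for removal in reticulocytes, had 59.4 and 81.5 against 21.1 and 23.3. Tent5c, a poly(A) polymerase that is also on this list, had 238 and 211 against 9.88 and 5.30. Outside the lists, Rsad2 (viperin, an antiviral radical SAM enzyme, at chr12:26442746-26456452 on the minus strand) had 727 and 449 UMIs, 411 and 402 CPM, against 6.07 and 2.47.

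Several transcription factors of the lineage were close to 0. Gata1 had 2 and 1 UMIs, Klf1 1 and 2, Nfe2 2 and 3, Tal1 2 and 5 and Gfi1b 0 and 1 over all 581 and 437 cells. The listed factors that reached 20 UMIs, among them Myb, Ldb1, Bcl11a and Sox6, were not 2-fold above the other barcodes in either library, with list medians of 78.7% and 81.2%. The progenitor genes Kit and Epor had 27 and 20 UMIs, and 1 and 0. The 15 proliferation genes had medians of 62.4% and 85.2% of the other barcodes' level, beside 70.3% and 78.8% over all genes tested. Mki67 had 144 and 192 CPM against 153 and 189.

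Among the red blood cells the leading genes followed the globin share, by which the bins were made. The 8 leading genes together had 1288, 3300.2, 7826 and 15244 CPM in the humWT cells with 10 to 25% (186 cells), 25 to 50% (222), 50 to 75% (165) and 75 to 100% globin (8), and 1031, 2687, 7457 and 16898 in the humdG cells (133, 153, 140 and 11). Alas2 was detected in 47.3%, 84.2%, 95.2% and 100% of these humWT cells and in 39.8%, 59.5%, 92.1% and 100% of the humdG cells. Over the same bins the median non-globin count was level, at 2582, 2519, 2466 and 2607 UMIs in humWT and 1905, 1899, 1960 and 2002 in humdG. The globin per cell, by contrast, went from 770 to 1751, 3890 and 10328 UMIs in humWT and from 685 to 1317, 3330 and 8337 in humdG. Malat1, a nuclear RNA, had 8297, 3769, 2649 and 1870 CPM in humWT and 7277, 6150, 2811 and 2040 in humdG.

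Rsad2 separated the cells by Hba-a2 share in humdG. It was detected in 4 of the 114 humdG cells with a share under 25% (3.51%, exact interval 0.964 to 8.74%) and in 109 of the 321 at 30% or more (34.0%, 28.8 to 39.4%). The sums were 5 and 442 UMIs, or 16.7 and 544 CPM, a log2 ratio of -4.89 (interval -6.66 to -3.80). In humWT detection was in 38 of 116 cells (32.8%, 24.3 to 42.1%) and 147 of 454 (32.4%, 28.1 to 36.9%), and the levels were 547 and 383 CPM, a log2 ratio of 0.52 (0.26 to 0.76), the other way from humdG. By rising bin of globin share, Rsad2 was detected in 21.5%, 28.8%, 49.7% and 25% of the humWT cells (8 cells in the last bin) and 19.5%, 22.9%, 33.6% and 63.6% of the humdG cells (11 in the last), and among cells with at least 50% globin it was 56.1% and 46.6% in the low and high humWT cells and 2.86% and 45.2% in the humdG cells. Rsad2 had the lowest log2 ratio of the 1251 genes with at least 100 UMIs in humdG, and no single cell set it, since the most in 1 cell was 39 UMIs. The genes next in order each had a large part of their UMIs in 1 cell, Dct with 482, Ptgds with 205, Mt1 with 76 and Ifitm3 with 46 UMIs in it. Rsad2 was singled out here after its values were seen, and what sets its level in these cells was not tested.

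**Figure D4:**
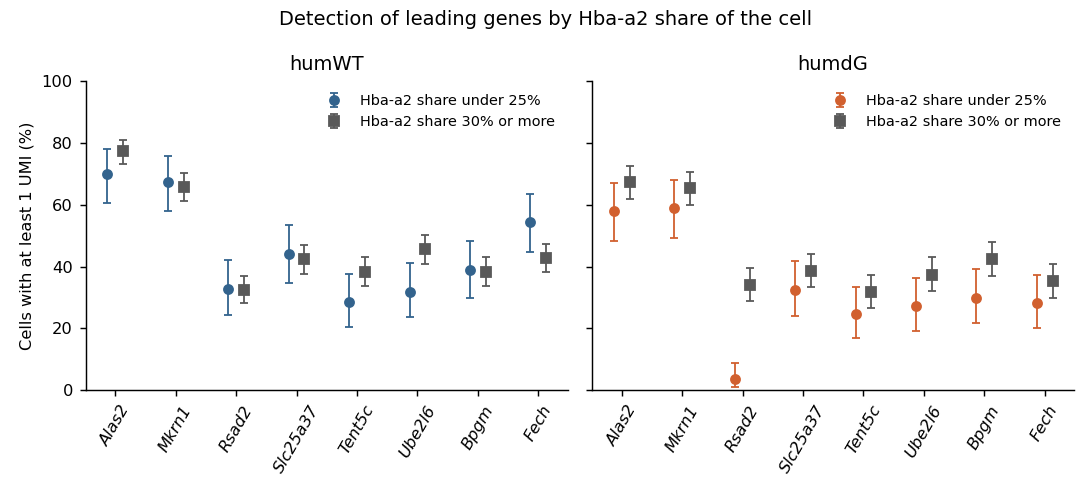
Share of red blood cells with at least 1 UMI of each leading gene (with exact 95% intervals, counting error only), in cells with a Hba-a2 share under 25% (circles; 116 humWT and 114 humdG cells) and at 30% or more (squares; 454 and 321 cells). Rsad2 is at 3.51% against 34.0% in humdG and at 32.8% against 32.4% in humWT.

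The other leading genes were present in both sets of cells. Alas2 had 1026 and 926 CPM in the low and high humWT cells and 613 and 948 in the low and high humdG cells. Gpx1 had 915 and 485 CPM in humWT and 333 and 618 in humdG, so that the low set was above the high set in humWT and below it in humdG for both genes. For Alas2 in humWT the interval of the log2 ratio, -0.03 to 0.32, included 0. Of the other leading genes, Slc25a37, Fech, Bpgm and Mkrn1 had log2 ratios of the low to the high set of 0.88, 0.81, 0.71 and 0.59 in humWT, with intervals above 0, while Tent5c (-0.29) and Ube2l6 (-0.11) had intervals that included 0. In humdG all 6 were negative, and the intervals lay below 0 for Ube2l6 (-0.79), Bpgm (-0.66) and Mkrn1 (-0.41) and included 0 for Tent5c (-0.38), Fech (-0.37) and Slc25a37 (-0.22). Slc4a1 had 80.3 and 58.7, and 80.0 and 70.2. Xist, transcribed in female cells only, was detected in 10.3% and 11.2% of the low and high humWT cells and in 21.1% and 22.1% of the humdG cells. Across all genes with at least 20 UMIs, 231 of 8351 in humWT (2.77%) and 171 of 6793 in humdG (2.52%) were at least 2-fold higher in the low set, and 646 (7.74%) and 458 (6.74%) at least 2-fold lower. Emcn (5 and 95 UMIs) and Cd34 (9 and 133 UMIs), both expressed in endothelium, were among the lowest in humWT, and 1 cell held 35 of the Emcn and 1 cell 29 of the Cd34 UMIs. Their part in the comparison was not tested.

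Listed red cell genes were a small part of the non-globin RNA of these barcodes, and the origin of the rest was not tested. Together, ferritins included, they were 1.09% and 1.23% of the non-globin UMIs. Some features were grouped as linked to ribosomal RNA (rRNA), and the source of their reads was not tested. They were Gm42418, AY036118, Cdk8, Lars2, Cmss1, Gphn and Camk1d, the last 3 added after their levels were seen. Together they made up 38.4% in humWT and 28.6% in humdG, against 12.8% and 11.7% in the other barcodes. The level was close to that in other barcodes of low depth, 36.2% and 25.5% in the 3991 humWT and 7064 humdG barcodes with no more non-globin UMIs than the median red blood cell. Gm42418 alone had 516684 and 216160 UMIs, 292438 and 193652 CPM. Ribosomal protein genes made up 10.2% and 13.1% (14.6% and 15.03% in the other barcodes), and mitochondrial transcripts 4.24% and 3.47% (4.08% and 3.27%).

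The remainder resembled the tissue. Over the 1909 humWT and 1225 humdG genes with enough counts that were on no red cell list, the median level was 69.4% and 83.5% of that in all other barcodes and 95.1% and 95.03% of that in the low-depth barcodes. Against the latter, 90% of the genes lay between 77.6% and 135% in humWT and between 73.1% and 137% in humdG. Pearson's r across genes on the log scale was 0.957 and 0.965, and genes are not independent replicates and share library and depth.

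By cell class the remainder was uneven. Mesenchymal genes, led by the collagens Col1a1 (2408 and 1106 CPM), Col1a2 and Col3a1, were the largest list with 7671 and 3354 CPM summed, 47.1% and 45.03% of all other barcodes but 104% and 97.0% of the low-depth barcodes. Retinal progenitor genes, such as Ccnd1 (436 and 910 CPM) and Pax6 (82.1 and 211), summed to 67.9% and 79.5% of all other barcodes and 99.6% and 91.6% of the low-depth barcodes. Retinal neuron genes (Stmn2, Tubb3, Gap43) summed to 78.0% and 112% of all other barcodes and 70.4% and 65.9% of the low-depth ones. Skeletal muscle genes, such as Acta1 (160 and 65.4 CPM against 99.3 and 40.8) and Myh3, stood above the other barcodes, with a sum of 164% and 135%, and below the low-depth ones, with 66.1% and 54.9%. Endothelial genes summed to 58.7% and 73.0% of all other barcodes and to 139% and 116% of the low-depth ones.

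Genes of other blood cells were lower than in all other barcodes, and less so or, for macrophage genes in humdG, hardly lower than in the low-depth ones. Of the level in the low-depth barcodes, macrophage genes summed to 54.9% and 99.5%, platelet genes to 46.0% and 50.1% and neutrophil and mast cell genes to 56.4% and 79.3%. The shares that follow are of all other barcodes. Macrophage genes, 7 of 7 detected, summed to 31.1 and 36.7 CPM, 9.97% and 18.8% of the level in the other barcodes, with Fcer1g (14 and 10 UMIs) the most abundant. Platelet and megakaryocyte genes summed to 18.1 and 12.5 CPM, 8.55% and 12.7%, where Pf4 had 29 and 9 UMIs and 5 (humWT) and 4 (humdG) of the 7 genes were at 0. Genes of neutrophils and mast cells summed to 16.2% and 14.6%, led by Cpa3 in humWT with 21 UMIs and by S100a8 in humdG with 15. Pigment epithelium genes had sums of 75.4% and 130%, but 1 humdG cell held 482 of the 595 Dct and 188 of the 402 Pmel UMIs, and 1 humWT cell held 137 of the 232 Ttr UMIs. Likewise 1 humWT cell held 36 of the 60 Cldn5 and 50 of the 87 Egfl7 UMIs of the endothelium. No doublets were called, and these cells were kept.

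**Figure D5:**
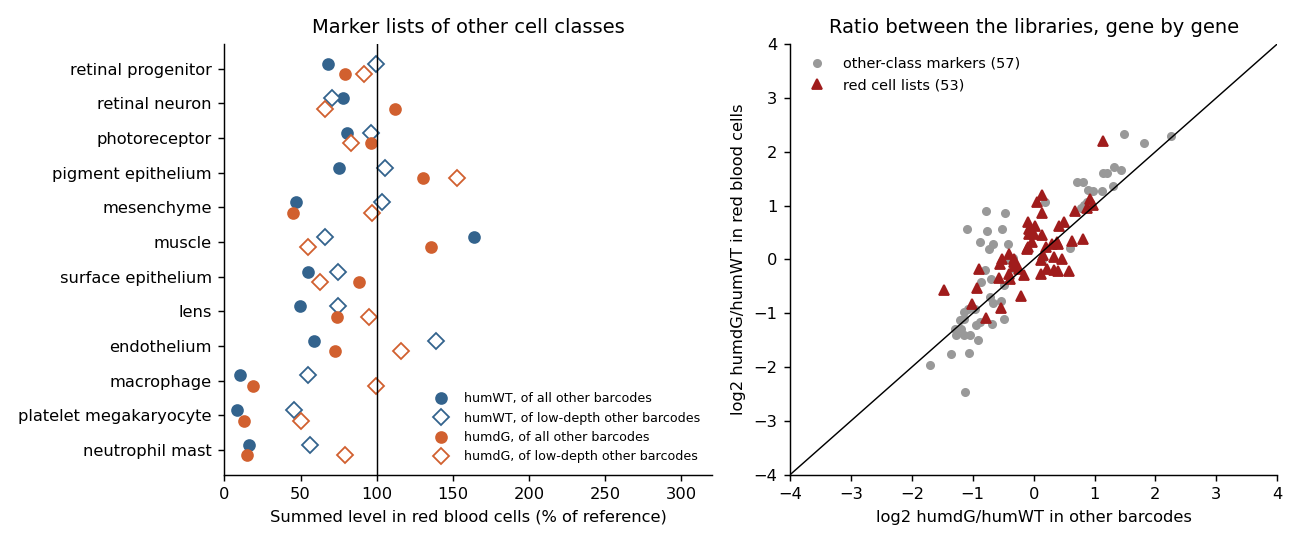
Left, summed level of 12 marker lists of other cell classes in red blood cells, as % of all other barcodes (filled) or of low-depth other barcodes (open), with humWT in blue and humdG in orange. Right, log2 ratio humdG to humWT of 57 other-class markers (grey circles) and 53 red cell genes (red triangles) in red blood cells (y) against other barcodes (x), with the line of equality; collagens and muscle genes lie below 0 and, apart from the progenitor gene Sfrp2 (-0.16 in red blood cells), the retinal markers lie above 0 on both axes, while many other-class markers lie above the line (median -0.0032 in red blood cells and -0.67 in other barcodes).

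Between the genotypes most red cell genes differed by less than 2-fold. Over the 53 red cell genes with at least 20 UMIs in the 2 libraries together, the median log2 ratio of humdG to humWT was 0.09, beside 0.19 over all 10386 genes, and relative to that shift it was -0.10. At least 2-fold higher were 5 and at least 2-fold lower 1 of the 53, while 8.65% of all genes were at least 2-fold higher and 7.59% at least 2-fold lower. Apart from Myb, which had 90 and 115 UMIs, the genes past 2-fold were low in count. Those past 2-fold included Add2, a membrane skeleton gene, at 2.19 (interval 1.05 to 3.61, with 8 and 24 UMIs), Tfrc at 1.13 (0.20 to 2.10), Abcb6 at 1.06 (-0.29 to 2.50), Myb at 1.01 (0.61 to 1.43) and, lower, Gypc at -1.09 (-2.97 to 0.30). Of these, Add2, Tfrc and Myb also stood at 1.13, 0.93 and 0.97 in the other barcodes. Relative to the median of all genes, these numbers over all genes were 555 higher and 1068 lower, in place of 898 and 788. At a globin limit of 5% they were 765 and 1000, at 20% 815 and 592, and without the 5% of cells with most UMIs 1000 and 664. The split of directions thus depends on the scale and on the choice of cells. For Alas2 the log2 ratio was -0.13 (interval -0.25 to -0.02). It was -0.32 (-0.44 to -0.20) relative to the median of all genes and -0.35 (-0.46 to -0.23) without the rRNA-linked features. However, it turned to 0.08 (-0.07 to 0.23) at a globin limit of 50%. The interval included 0 at limits of 5% and 20% and without the 5% of cells with most UMIs. The ratio was 0.04 (0.04 to 0.05) for Hbb-bs, 0.21 (0.20 to 0.22) for Hbb-bt, 0.24 (0.23 to 0.25) for Hba-a1 and -0.04 (-0.06 to -0.03) for Hba-a2. In the other barcodes these 4 globins stood at 0.28, 0.43, 0.23 and 0.04. For Mkrn1 the ratio was 0.00 (-0.11 to 0.12) and for Bpgm 0.05 (-0.13 to 0.22). Relative to the median of all genes, Mkrn1 was at -0.18 (-0.30 to -0.07) and Bpgm at -0.14 (-0.32 to 0.03). For Slc4a1 the ratio was 0.09 (-0.34 to 0.50), and for Rsad2, which was so uneven within humdG, -0.03 (-0.21 to 0.14). Relative to the median of all genes Rsad2 was at -0.22 (-0.39 to -0.05), and without the rRNA-linked features at -0.25 (-0.42 to -0.07). Prdx2 was at 0.69 (0.57 to 0.81) and Fth1 at 0.47 (0.38 to 0.56), beside 0.51 and -0.07 in the other barcodes. With 1 library for each genotype a genotype effect and a difference between the pools cannot be told apart.

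Lists of retinal, mesenchymal and muscle genes had larger median ratios, in the same direction as in the other barcodes. The median log2 ratio in the red blood cells and in the other barcodes was -1.20 and -1.15 for the mesenchymal genes, -1.29 and -1.05 for muscle, 1.27 and 0.90 for retinal progenitors, 1.66 and 1.32 for retinal neurons and 1.27 and 0.77 for photoreceptors. Proliferation genes stood at 0.85 and 0.38. Over all 57 other-class markers the medians were -0.0032 and -0.67. The macrophage list (2 genes) had medians of 0.36 and -0.74, surface epithelium 0.29 and -0.47, endothelium -0.41 and -0.86 and pigment epithelium -0.36 and -0.72. Among genes with at least 100 UMIs in the 2 libraries together, the 5 with the highest ratios were replication-dependent histone genes, which pack newly copied DNA. Hist1h2bl was at 3.10 in the red blood cells and 3.25 in the other barcodes, Hist1h3i at 2.65 and 1.95, Hist1h2bm at 2.53 and 1.98, Hist1h3c at 2.50 and 1.89 and Hist1h3e at 2.42 and 2.14. The 5 lowest were Ankfn1 (-5.36 and -1.76), Matn4 (-4.15 and -1.59), Cdh3 (-2.75 and -1.38), Ttr (-2.47 and -1.13) and Sema3c (-2.43 and -1.34). For Ankfn1, Cdh3 and Ttr 1 humWT cell held 90 of 227, 43 of 111 and 137 of 232 UMIs, whereas for Matn4 the most in a cell was 3 of 98. Without the 5% of cells with most UMIs Ttr was at -1.21, and at a globin limit of 20% Ttr, Ankfn1 and Cdh3 were at -0.96, -3.37 and -1.69. Every one of these 10 genes had the same direction in the other barcodes. The rRNA-linked features differed among themselves, with Gm42418 at -0.59 and Cdk8 at 1.13, beside -0.26 and 1.52 in the other barcodes.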

How the data were processed

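The single-cell libraries (1 for each genotype, each of 3 pooled samples) were deposited by the authors as UMI counts per gene and barcode, with more barcodes (17421 and 19565, of which 17017 and 19129 passed the limits on genes and mitochondrial UMIs) than the cells the study describes. The submitters' processing notes name Cell Ranger 7.1.0, Seurat 4.1.1 and the mm10 build. UMIs were summed over red blood cells and over other kept barcodes and scaled to 1000000 non-globin UMIs, with exact Clopper-Pearson, Poisson or conditional binomial 95% intervals. With 1 library for each genotype there was no test. Genes with at least 20 UMIs were counted past 2-fold. The calculations, run in Python 3.11.15 with numpy 2.4.6, scipy 1.17.1, pandas 2.3.3 and matplotlib 3.10.9, were tested on simulated data.

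The red blood cells and the gene lists were chosen with earlier results of these data known. Genes named in the text were up to 4 of each list with the most UMIs, the 10 with the largest ratio of red blood cells to other barcodes (10 CPM added to both, in the library with the smaller ratio) among genes with at least 100 UMIs in each library, the 5 highest and 5 lowest ratios between genotypes among genes with at least 100 UMIs in all, and genes singled out after their values were seen, such as Tfrc, Kel, Rhd, Xist, Emcn and Cd34. The split by Hba-a2 share was likewise found in the data. Of the listed genes, 1 was not analysed here, and a few that the rule names are not reported here. No doublet caller was run, and leaving out the 5% of red blood cells with the most UMIs was an alternative instead. Promoter sequences are from RefSeq (GRCm38.p6), gene positions and transcripts from GENCODE M21 (GRCm38), the assembly also called mm10.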

Additional observations from a re-analysis of the deposited data

How the results depend on the processing

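No paired analysis was possible because each genotype has 1 library. With globin limits of 5%, 20% and 50% the red blood cells were 3.84%, 2.69% and 1.02% of the humWT and 2.72%, 1.88% and 0.789% of the humdG barcodes, and their median globin share was 33.5%, 44.7% and 60.3%, and 30.05%, 44.1% and 61.0%. At 50% the ratio of the shares was 0.776, the Hbb-bt share of beta-like UMIs was 21.5% and 21.7%, the humWT cells under 25% Hba-a2 were 23.7%, 475 genes were at least 2-fold higher and 310 lower in humdG, and the log2 ratio of Alas2 between genotypes turned from -0.13 to 0.080. The humWT Hbb-bt share was 19.3% at a limit of 20%, and without the 5% of cells with most UMIs it was 18.4% (20.5% in humdG). The median log2 ratio of red cell genes to other barcodes was 1.23 in humWT and 0.97 in humdG. It was 0.37 and 0.68 at a limit of 5%, and 3.13 and 4.40 at 50%. Per 1000000 of all UMIs it was 0.46 (interval -0.35 to 1.97) and 0.16 (-0.65 to 2.10). Thinned to 1000 UMIs it was 2.67 and 2.38. On the scale of all UMIs the other-class markers had a median of 39.4% and 48.5% of the other barcodes, in place of 67.2% and 85.03%. Scaling without the rRNA-linked features, an alternative chosen after seeing the data, gave 95.1% and 105%, and low-depth barcodes as the reference, also chosen after seeing the data, gave 96.9% in humWT and 79.2% in humdG, so that the order of the libraries turned. Between genotypes, the median of the red cell genes was -0.10 relative to all genes and -0.13 without the rRNA-linked features. The genes at least 2-fold higher were then 555 and 500, and those at least 2-fold lower 1068 and 1112. With at least 100 UMIs 219 were higher and 207 lower, and with at least 1 UMI 3101 and 3508. The causes were not tested, except that fewer or more genes enter when the minimum changes. Of the values for single genes, 221 moved by less than their counting interval and 39 by more. In humdG the cells under 25% Hba-a2 stayed between 23.2% and 26.3% under the 6 alternatives for the choice of cells.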
